A study of Rattus norvegicus with 20 samples.

Results

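The *Cyp2c* genes encode cytochrome P450 enzymes of the endoplasmic reticulum, and 6 of them in rat liver are described here: *Cyp2c12*, *Cyp2c11*, *Cyp2c6v1*, *Cyp2c7*, *Cyp2c13* and *Cyp2c23*. They were taken by symbol from the annotation of the RAE230A array, on which each of the 6 had 1 ProbeSet, a set of short probes summarised to 1 value. These are 6 of 15923 ProbeSets and 6 of 10412 genes with a ProbeSet of their own. Liver mRNA was measured in 20 male rats, 4 separate animals in each of 5 groups with 1 array per animal. Line-A and Line-C descend from crosses between L-E and H/W rats, and Line-A carries the variant aryl hydrocarbon receptor (*Ahr*) allele of H/W while Line-C carries the wild-type allele. H/W (Han/Wistar of the Kuopio colony) is random-bred and has the variant *Ahr*. L-E (Long-Evans of the Turku/AB sub-strain) is in-bred and S-D (Sprague-Dawley) out-bred, and both have wild-type *Ahr*. All rats were 10 to 12 weeks old and had received corn oil by gavage 19 h before the liver was taken, although the S-D titles say only control. No rat was treated with a dioxin, so the signals describe basal levels, compared here between strains and lines.

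Rat *Cyp2c* enzymes hydroxylate steroids, retinoids, fatty acids and drugs, and several of them are classical markers of sex differences in rat liver. The pituitary of male rats releases growth hormone in pulses, which act on hepatocytes through STAT5B and maintain the male enzymes *Cyp2c11* and *Cyp2c13*, while the steadier secretion of females maintains the female enzyme *Cyp2c12*. *Cyp2c12* hydroxylates steroid sulfates and *Cyp2c11* hydroxylates testosterone. *Cyp2c7* hydroxylates retinoic acid and is more abundant in females, *Cyp2c6v1* belongs to a drug-metabolizing form found in both sexes, and *Cyp2c23* makes epoxides from arachidonic acid.

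Signals are log2 values, so a difference of 1 is a doubling, and a mean signal under 4 is treated as unexpressed in this study. All 6 genes were expressed, with means over the 20 rats from 9.42 for *Cyp2c12* to 14.20 for *Cyp2c7*. Different probes bind with different strength, so signals of one gene are not compared here with those of another. The hepatocyte markers on the array, 5 of 6 listed, averaged 15.1 to 15.4 in every rat. *Xist*, which is transcribed from the inactive X chromosome of females, was near background in all rats at no more than 2.90. *A1bg*, a female-biased liver gene, was likewise near background at no more than 2.66. Of 7 female-biased genes on the array, however, 3 were expressed. They were *Cyp3a9* at 8.56 to 11.27, *Cyp2a1* at 7.45 to 9.33 and *Sult2a2* at 4.80 to 5.57. Arrays were scanned on 5 days. All 8 line arrays shared a day, H/W and L-E shared 2 days, and no other group was scanned on the day of S-D or by its operator. Strain and scan day thus cannot be told apart wherever S-D or a line is set against another strain. In bulk tissue, fewer hepatocytes and less mRNA per hepatocyte cannot be told apart either.

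In the RefSeq annotation of GRCr8 all 6 genes lie on chromosome 1. *Cyp2c11*, *Cyp2c6v1*, *Cyp2c7*, *Cyp2c12* and *Cyp2c13* fall within 2.61 Mb, together with pseudogenes and further *Cyp2c* genes, and *Cyp2c23* lies 4.05 Mb beyond them. *Cyp2c12* and *Cyp2c13* are next to each other with 24.8 kb between them. Promoter windows were given for 5 of the 6 genes, and *Cyp2c6v1* had none in the table used. In the 250 bases before the transcript start, *Cyp2c12* and *Cyp2c13* were the most alike of the 10 pairs, with 170 bases identical in a global alignment, or 68% of the window. The other pairs shared 47.6% to 61.2%. Both windows are shown because these neighbours behaved very differently in the data that follow, *Cyp2c12* having the widest range over groups and *Cyp2c13* the narrowest. Each is written 5′ to 3′ on the strand of the gene, which is the minus strand, at chr1:248677035-248677284 for *Cyp2c12* and chr1:248787189-248787438 for *Cyp2c13*. Capitals mark bases that have no identical partner in the other window, 80 in each.
Cyp2c12: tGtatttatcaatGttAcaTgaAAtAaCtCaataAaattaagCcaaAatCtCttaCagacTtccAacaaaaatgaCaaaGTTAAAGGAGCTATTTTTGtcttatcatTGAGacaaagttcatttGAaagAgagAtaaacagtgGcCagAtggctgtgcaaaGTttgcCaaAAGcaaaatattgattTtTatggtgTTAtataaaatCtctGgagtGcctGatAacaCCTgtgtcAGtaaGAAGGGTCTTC
Cyp2c13: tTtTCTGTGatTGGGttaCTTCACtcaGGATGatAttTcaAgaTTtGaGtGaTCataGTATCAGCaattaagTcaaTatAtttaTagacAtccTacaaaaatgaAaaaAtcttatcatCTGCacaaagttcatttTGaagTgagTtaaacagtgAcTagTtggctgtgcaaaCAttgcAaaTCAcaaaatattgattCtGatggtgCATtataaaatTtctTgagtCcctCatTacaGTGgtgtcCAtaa
The start used for either gene lies inside its annotated span, so other transcripts may begin farther upstream. The STAT5 motif TTCNNNGAA, the core AHR motif GCGTG and the HNF4A motif CAAAGTCCA were searched on both strands of the windows together with the bases just after the start, and 0 of the 5 windows held any of them. Only these exact strings were counted, and not variants such as CAAAGTTCA, which is in the windows of both *Cyp2c12* and *Cyp2c13*. The C/EBP motif TTGCNNAA was in 1 of the 5, that of *Cyp2c12*, where it starts at base -87. Of all 33469 promoter windows of this length, 8.87% held the STAT5 motif, 29.7% the AHR core, 0.391% the HNF4A motif and 10.6% the C/EBP motif. Such matches are strings of letters in the reference genome and not sites of binding, and the sequences of the 5 rat groups were not examined.

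*Cyp2c12* was far less abundant in the groups with variant *Ahr* than in those with the wild-type allele, and it varied widely among rats of 1 group. The 4 Line-A rats had log2 signals of 6.53, 9.02, 9.63 and 6.53, against 11.12, 12.09, 12.70 and 11.25 in the Line-C rats. H/W rats had 7.17, 6.32, 6.16 and 6.20, against 11.02, 11.53, 11.02 and 10.94 in L-E rats. S-D rats lay between these at 10.17, 9.32, 10.24 and 9.48. Every Line-A rat was below every Line-C rat, and every H/W rat was below every L-E rat, while Line-A overlapped with both H/W and S-D.

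**Figure D1:**
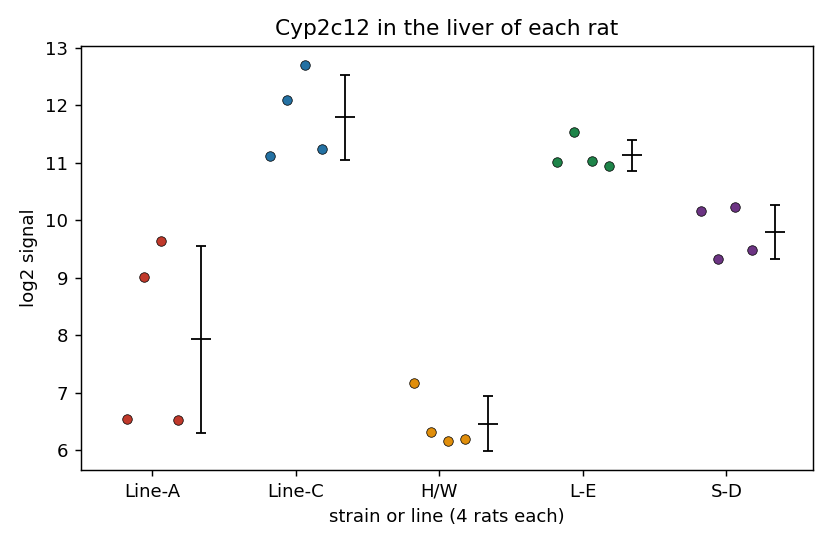
Log2 signal of *Cyp2c12* (vertical axis) in each of 20 rats, by strain or line, with the group mean and SD (n = 4) to the right of the points. Line-A rats fall into a pair at 6.53 and a pair at 9.02 and 9.63, and all Line-C and L-E rats lie above 10.9.

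*Cyp2c12* averaged 7.93 ± 1.63 in Line-A and 11.79 ± 0.74 in Line-C (SD, n = 4 each). This difference of -3.86 (95% interval -5.10 to -2.62), 14.6-fold lower in Line-A, was called with an adjusted p of 0.00176 by limma, with p-values adjusted over all ProbeSets and a limit of 5% FDR. H/W averaged 6.46 ± 0.48 and L-E 11.13 ± 0.27 (SD, n = 4 each), a difference of -4.66 (95% interval -5.90 to -3.42), 25.4-fold lower in H/W, with an adjusted p of 1.88e-04 by limma. Within the scan days that these strains shared, the difference was -3.85 for 1 H/W rat against 1 L-E rat and -4.92 for 2 against 3. The S-D mean was 9.80 ± 0.47 (SD, n = 4). A fit to the 8 line arrays alone gave the Line-A difference an adjusted p of 0.122 by limma, and an exact two-sided permutation test of 4 rats against 4 gave 0.0286 for either contrast, the smallest p this design allows.

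In order of *Cyp2c12* level the groups ran Line-C, L-E, S-D, Line-A, H/W, and 7 of the 10 pairs of groups were called. Pairs of neighbours in this order that were not called were Line-C and L-E (0.66, adjusted p = 0.369 by limma), L-E and S-D (1.33, adjusted p = 0.217), and Line-A and H/W (1.46, adjusted p = 0.183). L-E and S-D rats nevertheless did not overlap. Against the wild-type parent, Line-A was 3.20 lower (adjusted p = 0.00201 by limma), and against the variant parent Line-C was 5.33 higher (adjusted p = 5.10e-05), which at 40.2-fold was the largest difference of any pair. The difference of H/W from S-D was -3.34 (adjusted p = 0.00186 by limma). Both lines also differed from S-D, Line-A by -1.87 (adjusted p = 0.0328 by limma) and Line-C by 1.99 (adjusted p = 0.0388). These 2 calls were less secure. With array weights the Line-A difference was -0.99 (adjusted p = 0.0571 by limma), and its exact permutation p was 0.0857. It was also lost without Line-A replicate 1 or 4 or S-D replicate 1, 2 or 3, with adjusted p up to 0.116, and the Line-C call without Line-C replicate 2, 3 or 4 or any 1 S-D array, with adjusted p up to 0.118. With scan day as a random block neither was called (adjusted p = 0.163 for Line-A and 0.229 for Line-C).

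The spread of *Cyp2c12* among rats of the same group was among the widest on the array. Its pooled SD within groups was 0.86, which ranked 47 among the 7168 expressed ProbeSets, and 0.642% of them had a larger one. In Line-A alone the SD of 1.63 ranked 12, and the 4 rats spanned 3.11 log2 units, or 8.62-fold. Line-C rats spanned 1.58 units, H/W rats 1.01, S-D rats 0.91 and L-E rats 0.59. The in-bred L-E strain thus had the lowest SD of the 5 groups and Line-A the highest, but with 4 rats per group these SDs are themselves imprecise and were not tested against each other. Despite this spread, *Cyp2c12* had the lowest W/T of the 6 genes. W/T is the share of the total variance that lies within groups, and it was 0.137 ± 0.068 (jackknife SE over 20 arrays) for *Cyp2c12*. None of the other 5 genes had a pooled SD above 0.25.

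**Figure D2:**
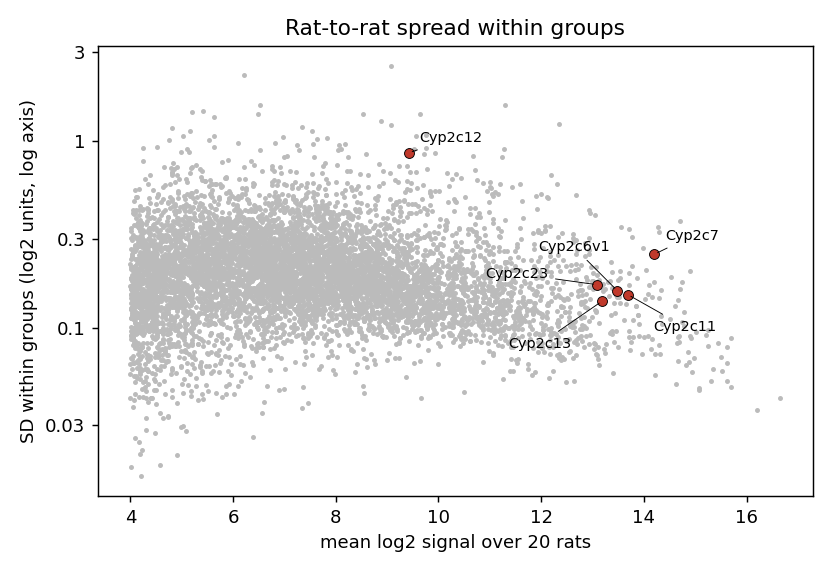
Pooled SD within groups (vertical, log axis) against mean log2 signal (horizontal) for each of 7168 expressed ProbeSets (grey), with the 6 *Cyp2c* genes in red. *Cyp2c12* at 0.86 stands near the top of the cloud, and the other 5 lie between 0.14 and 0.25.

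*Cyp2c6v1* moved in the opposite direction, with smaller differences and a tight spread. Line-A rats had 13.97, 13.89, 13.43 and 13.76, against 13.10, 12.86, 12.72 and 13.02 in Line-C rats. H/W rats had 13.90, 13.75, 13.66 and 13.83, against 13.41, 13.29, 13.23 and 13.22 in L-E rats. Neither of these pairs of groups overlapped, although Line-A replicate 3, at 13.43, lay next to the highest L-E rat, at 13.41. S-D rats had 13.83, 13.54, 13.54 and 13.74 and lay with Line-A and H/W, so that this wild-type strain was not on the side of Line-C and L-E.

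*Cyp2c6v1* averaged 13.76 ± 0.24 in Line-A and 12.92 ± 0.17 in Line-C (SD, n = 4 each), 1.79-fold higher in Line-A (0.84, 95% interval 0.61 to 1.06, adjusted p = 4.01e-04 by limma). Parental means were 13.78 ± 0.10 for H/W and 13.29 ± 0.09 for L-E, 1.41-fold higher in H/W (0.49, 95% interval 0.27 to 0.72, adjusted p = 0.0166 by limma). Within the shared scan days the H/W difference was 0.49 and 0.46, and without H/W replicate 1 the call was lost at an adjusted p of 0.0529. *Cyp2c6v1* was called in 7 of the 10 pairs, and the 3 pairs that were not called were those among Line-A, H/W and S-D, with differences of at most 0.12. Line-C was the lowest group. It was 0.36 below L-E (adjusted p = 0.0369 by limma) and 0.86 below H/W (adjusted p = 2.17e-04), and so outside the range of both parental strains. The rule was that of the study, a called difference from both parents in 1 direction. Here it was applied to all ProbeSets, while the study focused on those that differed between L-E and H/W. On this wider basis 2.14% of all ProbeSets met the rule in Line-C. No *Cyp2c* gene met it in Line-A, where 4.12% of ProbeSets did. The call against L-E was lost without Line-C replicate 2, 3 or 4 or any 1 L-E array, with adjusted p up to 0.116, and with scan day as a random block (adjusted p = 0.158). L-E in turn lay below S-D (-0.37, adjusted p = 0.0358 by limma), a call lost without L-E replicate 2, 3 or 4 or S-D replicate 1 or 4 and with the scan-day block (adjusted p = 0.195). W/T was 0.159 ± 0.077 (jackknife SE). The ProbeSet of *Cyp2c6v1* carries the suffix _a_at and that of *Cyp2c13* the suffix _s_at, which Affymetrix gives to sets whose probes are shared by several transcripts, and in a family of such similar sequences their signals may include mRNA of relatives.

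*Cyp2c23* was lower in Line-A than in Line-C. Its signals were 13.18, 12.58, 12.54 and 12.90 in Line-A rats, against 13.26, 13.35, 13.49 and 13.24 in Line-C rats, without overlap. The means were 12.80 ± 0.30 in Line-A and 13.33 ± 0.11 in Line-C (SD, n = 4 each), 1.45-fold lower in Line-A (-0.53, 95% interval -0.78 to -0.29, adjusted p = 0.0298 by limma). In the parental strains, H/W averaged 13.00 ± 0.10 and L-E 13.12 ± 0.08, and the difference of -0.12 (95% interval -0.37 to 0.12) was not called (adjusted p = 0.489 by limma). Line-A was also 0.37 below S-D, at 13.17 ± 0.15 (adjusted p = 0.0319 by limma). The difference from L-E, -0.32, missed the threshold with an adjusted p of 0.0501 by limma. Both calls depended on single arrays. That against Line-C was lost without Line-A replicate 2 or 3 or any 1 Line-C array, with adjusted p up to 0.101, and that against S-D without Line-A replicate 2, 3 or 4 or S-D replicate 1, 2 or 4, with adjusted p up to 0.0641, and with scan day as a random block (adjusted p = 0.162). A fit to the 8 line arrays alone also lost the call against Line-C (adjusted p = 0.253 by limma).

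The male enzymes *Cyp2c11* and *Cyp2c13* and the retinoic acid hydroxylase *Cyp2c7* had fewer calls, 1 of 10 pairs for *Cyp2c11*, 0 of 10 for *Cyp2c13* and 1 of 10 for *Cyp2c7*. *Cyp2c11* ranged from 13.81 to 13.99 in Line-A, 13.47 to 13.74 in Line-C, 13.28 to 13.81 in H/W rats, 13.28 to 13.71 in L-E rats and 13.73 to 13.85 in S-D. Its only called pair was Line-A against L-E, where means of 13.91 ± 0.07 and 13.49 ± 0.18 (SD, n = 4 each) made it 1.34-fold higher in Line-A (0.42, adjusted p = 0.0119 by limma), and with scan day as a random block the call was lost (adjusted p = 0.0958). Against Line-C, Line-A did not overlap either, but the difference of 0.30 (95% interval 0.08 to 0.51) was not called (adjusted p = 0.257 by limma). The H/W and L-E means differed by 0.12 (95% interval -0.09 to 0.34, adjusted p = 0.434 by limma).

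*Cyp2c7* had the widest spread of these in Line-A, where the rats had 14.51, 13.63 and 13.50, with replicate 3 close to 14. The other groups ranged from 13.89 to 14.34 in Line-C, 14.34 to 14.65 in H/W rats, 14.24 to 14.55 in L-E rats and 13.91 to 14.23 in S-D. Line-A averaged 13.91 ± 0.45 and L-E 14.38 ± 0.14 (SD, n = 4 each), and this overlapping pair was the only one called (-0.47, adjusted p = 0.0493 by limma). The call was lost when any 1 of 17 of the 20 arrays was left out, with adjusted p up to 0.170, all except Line-A replicate 1, Line-C replicate 1 and H/W replicate 3, and with scan day as a random block (adjusted p = 0.196). A larger difference, -0.55 between Line-A and H/W (95% interval -0.90 to -0.19), was not called (adjusted p = 0.0668 by limma). *Cyp2c13* had means between 13.02 and 13.28 and was called in 0 of the 10 pairs by limma, where 3 had an unadjusted p under 0.05 and 0 had an exact permutation p under 0.05. Its largest difference was 0.26 (95% interval 0.06 to 0.46) between H/W, at 13.28 ± 0.18, and L-E, at 13.02 ± 0.13 (adjusted p = 0.165 by limma). W/T was 0.496 for *Cyp2c11*, 0.470 for *Cyp2c23*, 0.648 for *Cyp2c7* and 0.781 for *Cyp2c13*, with jackknife SEs of 0.22 to 0.37.

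**Figure D3:**
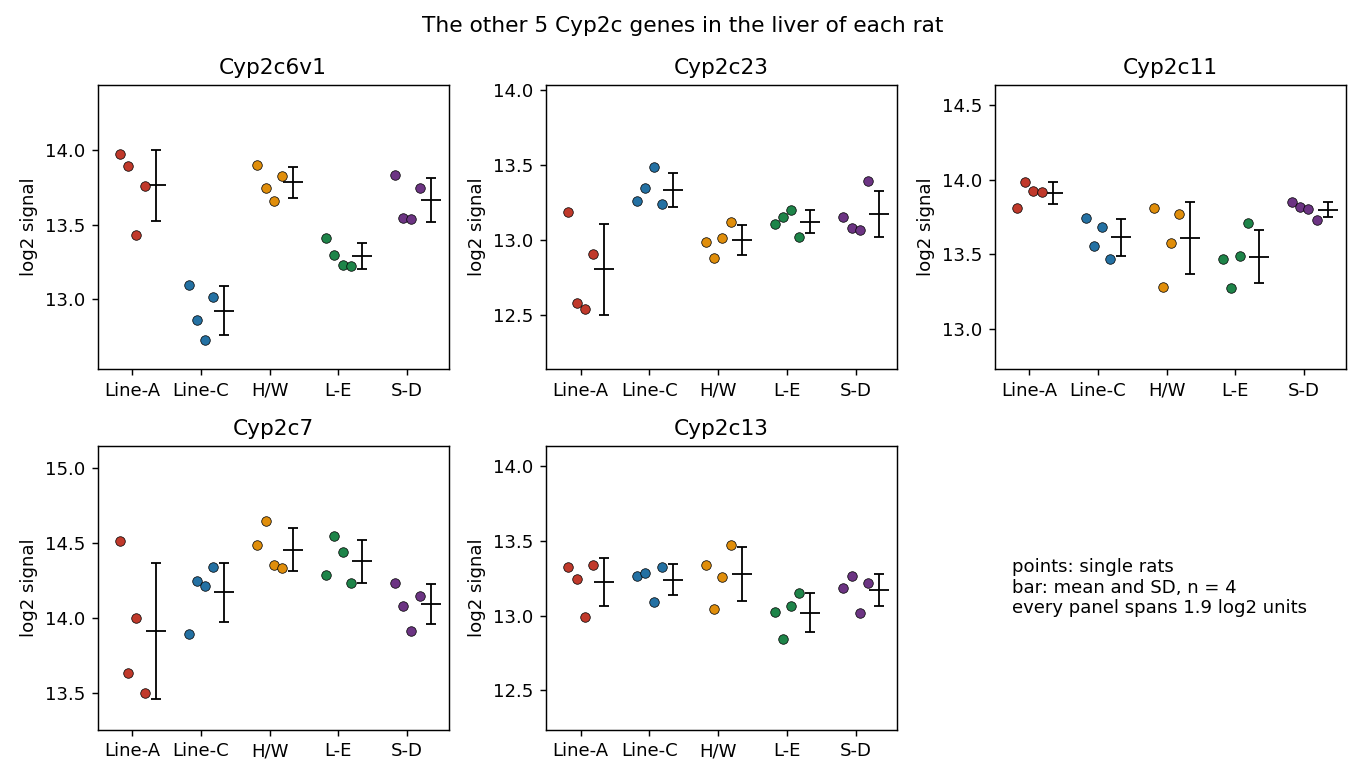
Log2 signal in each of 20 rats for the other 5 *Cyp2c* genes, 1 panel per gene with axes of equal length, and the group mean and SD (n = 4) to the right of the points. *Cyp2c6v1* separates Line-C and L-E, whose rats lie at or below 13.41, from the other 3 groups, and *Cyp2c13* overlaps in all groups.

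Another gene of the family on the array, *Cyp2c22*, a retinoic acid hydroxylase that lies beside *Cyp2c13*, had its lowest mean in L-E. Its signals there were 13.03, 13.06, 13.69 and 14.41, against means of 14.31 to 14.62 in the other groups. H/W exceeded L-E by 1.07 (95% interval 0.58 to 1.57, adjusted p = 0.0167 by limma) at 14.62 ± 0.22 against 13.55 ± 0.65 (SD, n = 4 each), with the highest L-E rat inside the H/W range. Line-A and Line-C were also higher than L-E, by 0.90 (adjusted p = 0.0169 by limma) and 0.76 (adjusted p = 0.0417).

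Over the 6 genes and 10 pairs of groups, 18 of 60 differences were called, or 30.0%, where 12.4% of all tests on the array were. The count differed from pair to pair, and so did the background. Between Line-A and Line-C 3 of 6 genes were called, where 1.39% of all ProbeSets were, and between H/W and L-E 2 of 6, where 3.31% were. For Line-C against H/W it was 2 of 6 with a background of 3.89%. Line-A against L-E gave 4 of 6, but 27.5% of all ProbeSets were called there and the arrays differed in their median signal (3.61 in Line-A, 3.51 in L-E), and Line-A against S-D gave 2 of 6 with 37.5% called overall. Line-A against H/W gave 0 of 6 by limma (3 at an unadjusted p under 0.05 and 0 by exact permutation) with a background of 6.39%. Line-C against L-E gave 1 of 6 (15.8% overall), Line-C against S-D 2 of 6 (12.2%), H/W against S-D 1 of 6 (6.83%) and L-E against S-D 1 of 6 (9.59%). The F-test over all 5 groups at 0.1% FDR called *Cyp2c12* (adjusted p = 2.98e-05 by limma) and *Cyp2c6v1* (adjusted p = 7.33e-05), 2 of 6 genes with a background of 4.6%.

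The study estimated the effect of the *Ahr* locus from a genetic model in which a line is the average of both parents, and H/W and Line-A carry an additional *Ahr* term. At 5% FDR this term was called for 3 of 6 genes, where 0.659% of all ProbeSets were. It was -3.86 for *Cyp2c12* (95% interval -5.28 to -2.44, adjusted p = 0.00872 by limma), 0.84 for *Cyp2c6v1* (0.58 to 1.10, adjusted p = 0.00200) and -0.53 for *Cyp2c23* (-0.77 to -0.30, adjusted p = 0.0341). In this design the estimate equals the difference between Line-A and Line-C for all 15923 ProbeSets, so it repeats that comparison and adds no evidence from H/W. With weights for array quality the *Cyp2c12* term was -2.43 and no longer called (adjusted p = 0.0936 by limma). The *Cyp2c23* term was lost without Line-A replicate 2, 3 or 4 or any 1 Line-C array, with adjusted p up to 0.123. The other 3 genes had terms of 0.30 for *Cyp2c11* (0.04 to 0.56), -0.26 for *Cyp2c7* (-0.70 to 0.17) and -0.02 for *Cyp2c13* (-0.22 to 0.19). Among the markers of other liver cells, *C1qa* of Kupffer cells was lower in Line-A than in Line-C (-0.55, adjusted p = 0.0264 by limma), while the other 2 Kupffer cell markers on the array, *Clec4f* (-0.63, adjusted p = 0.0635) and *Cd68* (-0.42, adjusted p = 0.699), were not called. Averaged over these 3 genes per rat, the level ranged over 7.27 to 7.52 in Line-A and 7.76 to 8.09 in Line-C. The part of Kupffer cells in these results was not tested.

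**Figure D4:**
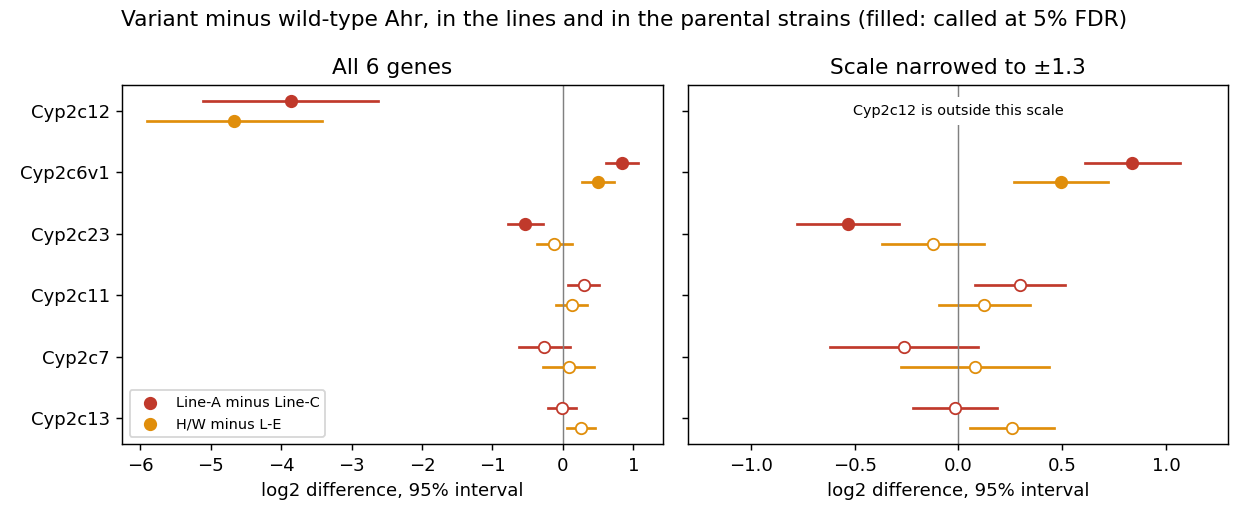
Log2 differences (horizontal axis) of the 6 *Cyp2c* genes between Line-A and Line-C (red) and between H/W and L-E (orange), with 95% intervals from limma and filled circles where called at 5% FDR. The right panel narrows the scale to show the 5 genes other than *Cyp2c12*, of which *Cyp2c6v1* is called in both contrasts and *Cyp2c23* in the lines alone.

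Whether the lines and the parental strains differed alike was tested as the difference between the H/W minus L-E and the Line-A minus Line-C contrasts. It was called for 0 of 6 genes by limma, where 2.01% of all ProbeSets were, with adjusted p from 0.292 to 0.717 and 2 genes at an unadjusted p under 0.05. For *Cyp2c12* it was -0.80 ± 0.83 (SE), for *Cyp2c6v1* -0.34 ± 0.15 and for *Cyp2c23* 0.41 ± 0.16. On a scale where the lower parent is 0 and the higher parent 1, *Cyp2c12* lay at 0.31 in Line-A and at 1.14 in Line-C, and *Cyp2c6v1* at 0.96 in Line-A and at -0.74 in Line-C. Such positions are descriptions of group means, and for the other 4 genes the parents were too close for them to be read.

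Rats of 1 group that departed from their group mean in one enzyme could do so in another. Over the 20 rats, after subtraction of the group means, *Cyp2c11* and *Cyp2c7* were inversely related (Pearson's r = -0.51, adjusted permutation p = 0.0381 over 15 pairs of genes, unadjusted 0.00254). By rank the relation was of similar strength but not past the threshold (Spearman's rho = -0.64, adjusted permutation p = 0.0610, unadjusted 0.00407), and r was -0.48 without the 2 rats farthest from the *Cyp2c11* median. The relation of *Cyp2c12* with its neighbour *Cyp2c13* had r = -0.58 (adjusted permutation p = 0.0586, unadjusted 0.00782) and rho = -0.60 (adjusted permutation p = 0.0979, unadjusted 0.0130), with r = -0.42 without 2 Line-A rats. None of the other 13 pairs had an adjusted permutation p under 0.2 by Pearson's r. Line-A replicates 2 and 3, the pair of rats with the higher *Cyp2c12*, also had the lowest *Cyp2c23* of all 20 rats, at 12.58 and 12.54, but over all rats that relation had r = -0.55 with an adjusted permutation p of 0.529.

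**Figure D5:**
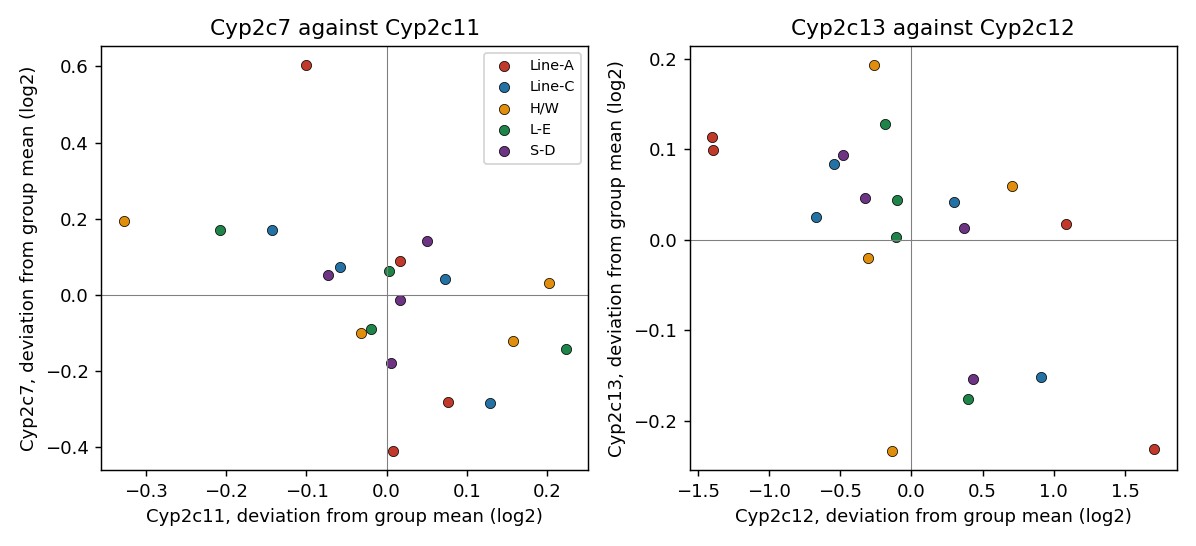
Deviation of each of 20 rats from its group mean, in log2 units on both axes, for *Cyp2c7* against *Cyp2c11* (left, r = -0.51) and *Cyp2c13* against *Cyp2c12* (right, r = -0.58), coloured by strain or line. The lowest *Cyp2c11* deviation belongs to H/W replicate 2 and the highest *Cyp2c12* deviation to Line-A replicate 3.

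In a pair of rats these departures went together with a high signal of 1 gene that is more abundant in the female liver, a different gene in each, singled out after the values were seen. H/W replicate 2 had the lowest *Cyp2c11* (13.28) and *Cyp2c13* (13.05) and the highest *Cyp2c7* (14.65) of the H/W rats, and it was the only rat of the 20 with a signal above 4 in any of the 3 ProbeSets of the prolactin receptor *Prlr*, at 5.72, 6.64 and 7.95. L-E replicate 2 likewise had the lowest *Cyp2c11* (13.28) and *Cyp2c13* (12.84) and the highest *Cyp2c7* (14.55) of the L-E rats, and also the highest *Cyp2c12* (11.53). It was the only rat with a signal above 4 for *Cux2*, a transcription factor found mainly in the female liver, at 4.63, where the other 19 rats had at most 2.41. *Cyp2c12* of H/W replicate 2 was 6.32, within the range of the other H/W rats. *Cux2* was 2.36 in H/W replicate 2, *Prlr* was 2.23 to 2.86 in L-E replicate 2, and over all 20 rats *A1bg* reached at most 2.66, *Sult2a1* at most 4.14 and *Xist* at most 2.90. The female-biased *Cyp3a9*, *Cyp2a1* and *Sult2a2* were expressed in all rats. Without these 2 arrays *Cyp2c12* differed by -4.48 between H/W and L-E (adjusted p = 0.00295 by limma). In that fit 13 of 60 differences were called, *Cyp2c6v1* no longer among them for H/W against L-E (adjusted p = 0.0589 by limma). The share of all tests called in that fit was not counted. Over the remaining rats r was -0.45 for *Cyp2c11* with *Cyp2c7* and -0.72 for *Cyp2c12* with *Cyp2c13*.

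Some genes followed the *Cyp2c* genes closely over the 20 rats, among 6099 expressed ProbeSets with a single symbol. These correlations have no p, since the points share strain and scan day. *Cyp2c12* was followed most closely by the organic anion transporter *Slco1b2* (r = 0.82), the iron-regulating gene *Hfe* (0.80) and 3 ProbeSets annotated to *Myh1* (0.78 to 0.79). *Slco1b2* averaged 11.95 ± 0.14 in Line-A against 12.33 ± 0.10 in Line-C, 11.52 ± 0.13 in H/W against 12.40 ± 0.14 in L-E, and 12.38 ± 0.08 in S-D (SD, n = 4 each). *Cyp2c6v1* went with the angiotensin receptor *Agtr1a* (r = 0.86 for each of its 2 ProbeSets), *Rab14* (0.85), *Marveld1* (0.79) and *Sqor* (0.78). One *Agtr1a* ProbeSet had 10.79 ± 0.18 in Line-A against 3.91 ± 0.22 in Line-C, 11.12 ± 0.17 in H/W against 3.54 ± 0.39 in L-E, and 10.70 ± 0.07 in S-D, so that S-D stood with Line-A and H/W as it did for *Cyp2c6v1*. *Cyp2c7* went with *Aspg* (r = 0.90), *Man1a1* (0.89), the bile acid enzyme *Akr1d1* (0.89), *Aco1* (0.85) and *Slc6a13* (0.83), and *Cyp2c11* with *Sec11c* (0.87), *Nek7* (0.86), *Mrpl51* (0.84), *Gstz1* (0.84) and *Tmem30a* (0.84). *Cyp2c23* was followed by *Selenos* (r = 0.76), *Dram2* (0.75), the metallothioneins *Mt1* (0.74) and *Mt2A* (0.73), and *Dnttip1* (0.71). *Cyp2c13* had weaker companions, *Tarbp2* (r = 0.76), *Sav1* (0.72), *Car3* (0.67), *Bsn* (0.67) and *Enpp2* (0.66). *Sav1* and *Bsn* lay just above the limit of 4 and hardly moved, with group means of 4.58 to 4.68 and 4.33 to 4.61. Over deviations from the group means, *Cyp2c12* was closest to *Rap1gds1* (r = 0.82), *Eef1a1* (0.79), another ProbeSet of *Rab14* (0.78), *Hnrnpd* (0.75) and *Shisa5* (0.70), and most opposed to *Usp36* (-0.78), *C8b* (-0.76), *Slc35a4* (-0.76), *Man1b1* (-0.74) and *Arl2bp* (-0.73). These values rest mostly on the 4 Line-A rats, where *Cyp2c12* and every ProbeSet named for its deviations had their highest SD. For *Rap1gds1* the SD was 0.46 in Line-A and at most 0.15 in any other group.

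Genes around these enzymes were read from lists by their counts, to be set against the 1.39% of all ProbeSets called between Line-A and Line-C and the 3.31% called between H/W and L-E. The lists were not tested against these shares. Of 12 growth hormone signalling genes on the array, 1 was called between Line-A and Line-C (2 had an unadjusted p under 0.05) and 0 of 12 between H/W and L-E by limma (3 at an unadjusted p under 0.05). This was *Igfbp3*, a growth hormone-dependent carrier of insulin-like growth factors, which was lower in Line-A (-0.81, adjusted p = 0.00201 by limma). *Stat5b* and the receptor *Ghr* were not called in either contrast. Of 6 male-biased liver genes, 3 had higher signals in H/W than L-E, namely the major urinary protein *Mup5* (4.64, adjusted p = 1.72e-08 by limma), *Obp3* (2.1, adjusted p = 1.03e-05) and *Cyp3a18* (1.0, adjusted p = 0.00947), while *Cyp3a2* (-0.64, adjusted p = 0.00325) and the estrogen sulfotransferase *Sult1e1* (-0.43, adjusted p = 0.00445) were lower in Line-A than in Line-C. Of 7 female-biased genes, *Cyp2a1* alone was called in these contrasts, with H/W below L-E (-0.83, adjusted p = 0.00563 by limma). Among 5 electron partners of P450 enzymes, *Cyb5b* was lower in Line-A than in Line-C (-0.74, adjusted p = 0.0356 by limma) but exceeded the L-E level in H/W (0.93, adjusted p = 0.00431), while the P450 reductase *Por* was called in neither. Of 14 liver transcription factors, 0 were called in either contrast by limma, and 4 had an unadjusted p under 0.05 in each. Their median difference between H/W and L-E was -0.49, where that of all ProbeSets was 0.04. The 3′ minus 5′ signal of *Gapdh*, which rises with RNA degradation, averaged 0.49 ± 0.22 for H/W and 0.28 ± 0.04 for L-E (SD, n = 4 each), highest at 0.81 in H/W replicate 3, and its part in this median was not tested. *Cebpa*, called by the F-test (adjusted p = 4.76e-04 by limma), averaged 8.62 ± 0.51 in H/W and 9.09 ± 0.14 in L-E (SD, n = 4 each). Pericentral markers *Cyp2e1* (-0.53, adjusted p = 0.00443 by limma) and *Glul* (-0.68, adjusted p = 0.0159) were lower and *Rgn* (0.34, adjusted p = 0.0274) was higher in H/W when set against L-E. Of 7 periportal markers, *Hal* was higher in H/W (0.43, adjusted p = 0.0440 by limma) and the other 6 were not called. The part of zonation in the differences of the *Cyp2c* genes was not tested. Markers of stellate cells, endothelium, cholangiocytes and lymphocytes had 0 calls between Line-A and Line-C by limma, and 1 of their 12 genes on the array had an unadjusted p under 0.05. Between H/W and L-E, *Lrat* of stellate cells was higher (0.83, adjusted p = 0.0169 by limma) and *Kdr* of endothelium lower (-0.30, adjusted p = 0.0413). *Lrat* was weak, with means of 4.51 in H/W and 3.68 in L-E, the latter under the limit of 4. The rest of these markers, among them *Des*, *Col1a1* and *Col3a1* of stellate cells, were not called.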

How the data were processed

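Liver RNA of 20 rats was hybridised to Affymetrix RAE230A arrays, 1 array per animal. The authors normalised the probe intensities by GC-RMA, and the deposited values are log2 signals per ProbeSet, per the submitters' processing notes made with R 2.6.1, affy 1.12.0 and GCRMA 2.10.0. Other entries of the deposited array headers gave scan days, lots and operators, which were used only to define batches. GC-RMA shrinks weak signals to a common floor, so differences of unexpressed ProbeSets are compressed. No raw intensities were normalised again, and the number of arrays limits the precision.

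All 15923 ProbeSets were fitted with limma 3.58.1 (statmod 1.5.0, R 4.3.3) over the 5 groups, following the study. Empirical Bayes tests were adjusted by Benjamini-Hochberg, with a 5% FDR for each of the 10 pairs of groups and for the *Ahr* term, and 0.1% for the F-test. In data simulated from these arrays, a change of 1 log2 unit was recovered in 92% of changed ProbeSets between H/W and L-E, in 69% by the F-test and in 90% by the *Ahr* term. False calls numbered 16, 0 and 11. The simulated noise had the same SD in every group and no effect of scan day. These shares therefore need not hold for genes with unequal spread, such as *Cyp2c12*, or across scan days. Single genes were also tested by exact two-sided permutation of rats, and within-group correlations by 1e+05 permutations within groups. No 2 arrays were identical, and their correlations were 0.985 to 0.998.

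The members, lists and tests were chosen with earlier results of these data known, and the study itself names *Cyp2c12* and *Cyp2c23* among its *Ahr*-dependent genes. The text names all 6 members, called list genes, and the 5 ProbeSets most correlated with each member. *Cyp2c22*, and the values of *Prlr* and *Cux2* by rat, were singled out after they were seen. Genes on several ProbeSets are given by the one with the highest mean. Promoter windows are from the RefSeq table for GRCr8 and were aligned with Biopython 1.88. Alternatives were other normalisations, filters, array weights, batch terms, a replicate block and leaving out each array.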

Additional observations from a re-analysis of the deposited data

Results flagged for a closer look

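In 35 sets of 4 rats, 6 genes and *Cyp2c22* in 5 groups, 2 held a rat that stood apart from its group by Dixon's criterion. This criterion is a gap to the nearest rat that is too large a share of the group's range. Chance flags about 1 in 20 sets, so a count of 2 is near what chance gives. Both concerned *Cyp2c12*. H/W replicate 1 had 7.17, while the other H/W rats had 6.16 to 6.32, so that the gap took 0.836 of the range. L-E replicate 2 had 11.53, while the other L-E rats had 10.94 to 11.02, a gap of 0.858 of the range. Line-A, with the widest spread of *Cyp2c12*, had no such rat, since its signals formed pairs.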

How the results depend on the processing

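For 21 differences and terms of single genes, 627 alternatives were run, of which 535 kept direction and side of the threshold, 92 kept the direction but lost the call and 0 reversed. Of the 21, 8 changed under no alternative. *Cyp2c12* differed between Line-A and Line-C by -4.43 to -3.40 with each array left out in turn, between H/W and L-E by -4.90 to -4.53, and in the *Ahr* term by -4.55 to -3.42, with all calls retained. With only the 8 line arrays its difference was -3.86 and lost the call (adjusted p = 0.122 by limma), and with array weights the *Ahr* term was -2.43 (adjusted p = 0.0936). The count of calls over the 10 pairs, 18 as reported, was 13 to 20 with single arrays left out and 9 to 23 over the other settings. Among these it was 10 with scan day as a random block and 9 at 1% FDR. Shares called over all ProbeSets were not counted under the alternatives, so these counts of members have no background of their own. The F-test called 4 genes at 5% FDR and 2 with any array left out, and the *Ahr* term 2 to 3. The 2 genes added at 5% FDR were *Cyp2c23* (adjusted p = 0.0225 by the F-test of limma) and *Cyp2c11* (0.0282). They ranked 2722 and 3206 by F among all 15923 ProbeSets, so at least 3206 ProbeSets passed at 5% FDR. With scan day as a random block 8 calls were lost, those between Line-A and L-E for *Cyp2c11* (adjusted p = 0.0958), *Cyp2c6v1* (0.0705) and *Cyp2c7* (0.196), and those of *Cyp2c12* and *Cyp2c23* for Line-A against S-D, *Cyp2c12* for Line-C against S-D, and *Cyp2c6v1* for Line-C against L-E and L-E against S-D. Replicate numbers are shared by the groups but did not pair the rats (median correlation of same-numbered deviations -0.008). With the replicate number as a block 16 differences, 2 F-tests and 2 *Ahr* terms were called, without *Cyp2c23* between Line-A and Line-C (adjusted p = 0.0514), its *Ahr* term (0.0617) and *Cyp2c7* between Line-A and L-E. Without H/W replicate 2 and L-E replicate 2, a choice made after seeing the data, 13 differences, 2 F-tests and 2 *Ahr* terms were called.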
